A study of Mus musculus with 6 samples.

Results

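The 10 genes described here encode the kinases and mediator proteins that respond to DNA double-strand breaks: *Atm*, *Atr*, *Chek1*, *Chek2*, *H2afx*, *Mdc1*, *Topbp1*, *Brca1*, *Bard1* and *Trp53bp1*. They were taken by gene name from a table of 54532 genes, and all 10 were found once in it and entered the test with 17180 genes in all. RNA of mouse ovaries (C57BL/6) at 16.5 days post-coitus (dpc) was sequenced in 3 Ctrl and 3 cKO libraries, each holding RNA of germ cells together with the somatic cells around them. The cKO mice carried the *Stra8-GFPCre* transgene on an *Srsf1* Fl/Fl background, so that *Srsf1*, which encodes a splicing factor, is deleted in germ cells from the start of meiosis and not in somatic cells. The labels give the Ctrl mice as wild type, and how many animals each library holds is not stated there. The study calls the libraries biological replicates, and p-values measure the spread between these libraries.

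In meiotic prophase I, breaks are made on purpose and are repaired with the homologous chromosome as template. ATM and ATR are large related kinases that sense breaks and single-stranded DNA, and they pass the signal to the kinases CHK1 and CHK2 and to the histone variant H2AX. MDC1 reads phosphorylated H2AX, TOPBP1 activates ATR, BRCA1 and BARD1 form a ubiquitin ligase that also acts at unsynapsed chromosomes, and 53BP1 limits the resection of break ends. In oocytes, CHK2 is known to lead to the removal of cells whose breaks persist.

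*Srsf1* itself was lower in every cKO library than in every Ctrl library, at 80.2, 70.1 and 63.1 FPKM in Ctrl and 32.4, 37.0 and 36.4 FPKM in cKO, where here and below the values of a group follow the order of replicates 1, 2 and 3. FPKM is the number of reads on a gene per kilobase of its length and scaled to the depth of the library. Every FPKM value of the table converted back to a whole number of reads with a tolerance of 0.05, and between 14212164 and 16784241 reads lay on genes per library. The summed level of germ-cell genes differed between libraries of the same group. A list of 9 germ-cell genes summed to 106, 217 and 386 FPKM in the Ctrl libraries, against 487, 202 and 538 in the cKO libraries. Much of the gap between the groups came from 1 of the 9, *Dazl*, whose splicing the study lists as altered in cKO ovaries. *Dazl* measured 23.0, 39.1 and 80.0 FPKM in Ctrl, against 169, 56.8 and 219 in cKO. For *Ddx4* the values were 13.07, 31.5 and 48.98 in Ctrl, against 51.88, 20.25 and 55.08 in cKO. The labels' extraction text names retina, but *Crx*, a defining gene of photoreceptors, was listed at 0 in every library, while *Foxl2*, the defining gene of pregranulosa cells, lay between 47.5 and 74.6 FPKM. Lists of other cells summed to 349 to 541 FPKM for pregranulosa cells, 571 to 705 for stroma, 66.7 to 84.0 for endothelium, 37.9 to 86.2 for immune cells and 1720 to 23000 for red blood cells, the last being highest in Ctrl 1.

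Across the 10 genes, only *Chek2* passed the study's limit of an unadjusted p below 0.05, and it was lower in cKO ovaries. *Trp53bp1* was slightly above Ctrl in every cKO library but did not pass. *Atm*, *Atr* and *Mdc1* had higher means in cKO ovaries with broad spread, and the other 5 genes had log2 fold changes between -0.12 and 0.20. All comparisons were made with limma on log2(FPKM + 1), two-sided, where the added 1 makes the log2 fold change (cKO minus Ctrl) of a low gene too small. The study applied its limit to p-values from DESeq2, so the threshold is shared here but the test is not. Of all genes tested, 4.43% passed the unadjusted limit in either direction with 2.68% higher and 1.75% lower in cKO, so 1 of 10 genes lies close to the background. No gene passed a Benjamini-Hochberg adjusted p below 0.05 in limma (0.0% of all genes tested), nor under limma voom on the recovered reads, while 761 genes passed the unadjusted limit. The median log2 fold change was 0.13 over the 10 genes and -0.0091 over all genes tested.

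**Figure D1:**
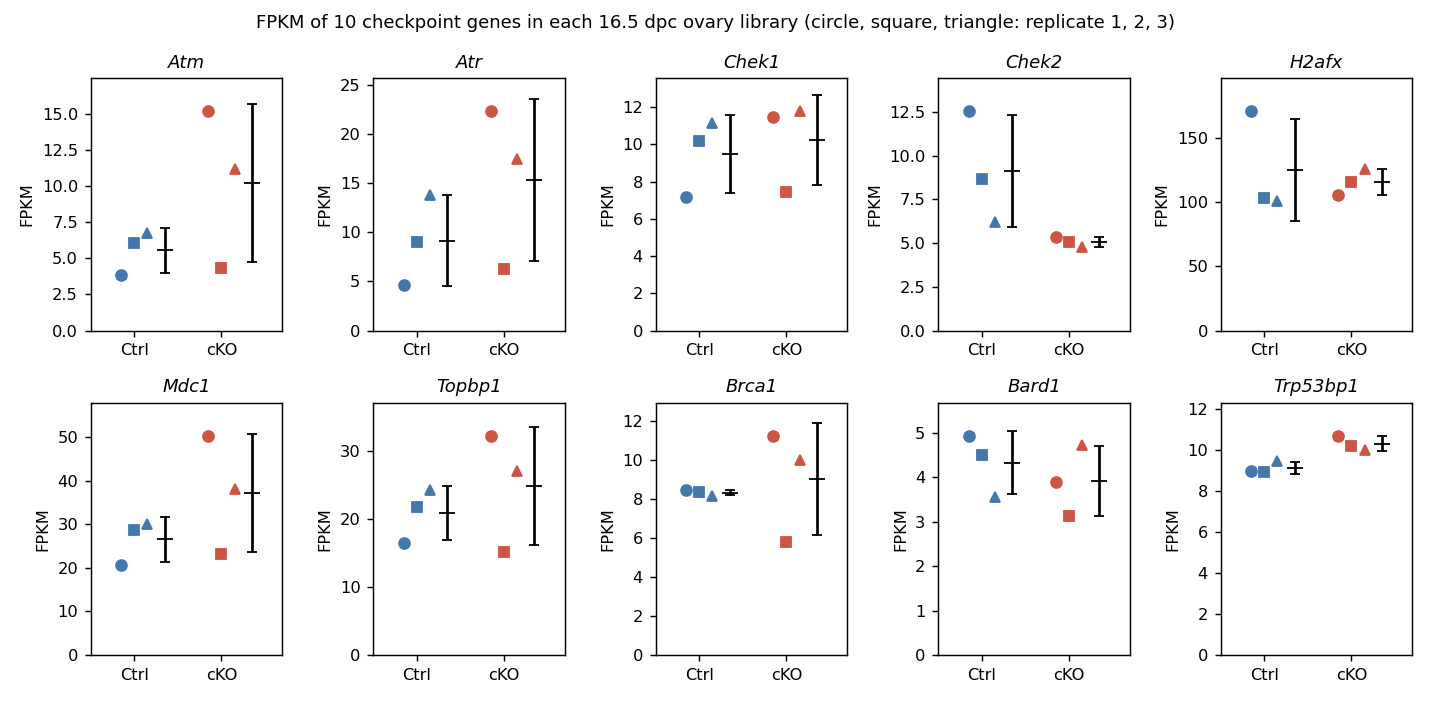
FPKM (linear axes from 0) of each of the 10 genes in the 3 Ctrl (blue) and 3 cKO (red) libraries, with the mean and SD of each group in black. The 3 cKO libraries lie below all Ctrl libraries for *Chek2*, above them for *Trp53bp1*, and overlap with them for the other 8 genes.

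The kinases at the top of the pathway were the most variable of the 10 genes. *Atm* (ENSMUSG00000034218, chromosome 9 of GRCm38, 53439149 to 53536740, minus strand) measured 3.82, 6.09 and 6.78 FPKM in the Ctrl libraries, against 15.2, 4.36 and 11.2 in the cKO libraries. Its cKO 2 library lay inside the Ctrl range, and the other cKO libraries lay above it. The log2 fold change was 0.66 with a standard error of 0.41 and a 95% interval of -0.32 to 1.65, which did not pass the limit (limma, unadjusted p = 0.153, adjusted p = 0.978). *Atr* (ENSMUSG00000032409, chromosome 9, 95857597 to 95951781, plus strand) measured 4.62, 9.002 and 13.8 FPKM in the Ctrl libraries, against 22.3, 6.23 and 17.4 in the cKO libraries. The order of the libraries was the same as for *Atm*, with Ctrl 1 lowest, cKO 2 next and cKO 1 highest. The log2 fold change of *Atr* was 0.63 with an interval of -0.59 to 1.85 (limma, unadjusted p = 0.258, adjusted p = 0.978). *Atr* overlaps *Gm16794* (26 to 67 reads per library) and *1700065D16Rik* (14 to 39 reads) on the other strand. The strand setting of the counts is not known here. The highest library held 3.98 times the *Atm* level and 4.82 times the *Atr* level of the lowest, ranges wider on the log2 scale than those of 94.0% and 96.3% of the genes tested. In bulk tissue, fewer cells of a type and less RNA per cell cannot be told apart.

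The downstream kinases showed other orders of the libraries. *Chek1* (ENSMUSG00000032113, chromosome 9, 36708482 to 36727065, minus strand), which acts after ATR and is used by dividing cells, measured 7.15, 10.2 and 11.1 FPKM in the Ctrl libraries, against 11.5, 7.44 and 11.8 in the cKO libraries. The groups overlapped, with Ctrl 1 and cKO 2 as the low libraries, and the log2 fold change was 0.09 (95% interval -0.44 to 0.63, limma, adjusted p = 0.986).

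*Chek2* (ENSMUSG00000029521, chromosome 5, 110839979 to 110874145, plus strand), which acts after ATM, measured 12.5, 8.64 and 6.22 FPKM in the Ctrl libraries, against 5.34, 5.04 and 4.79 in the cKO libraries. All cKO libraries were below all Ctrl libraries, and the cKO values lay close together while the Ctrl values spread over a wider range. Ctrl averaged 9.13 ± 3.19 FPKM (SD, n = 3), while cKO averaged 5.06 ± 0.279 (SD, n = 3), a ratio of the means of 0.554. *Chek2* fell by 0.70 on the log2 scale, with a standard error of 0.23 and an interval of -1.24 to -0.15. This gave an unadjusted p of 0.0192 and an adjusted p of 0.978 in limma, and the exact permutation test gave p = 0.1, two-sided, the smallest this design can give. Each value rests on 204 to 564 reads. In Ctrl, the summed level of 12 genes of cycling cells followed the same order, at 625, 477 and 376 FPKM, and in cKO it was 473, 352 and 463, while the red blood cell list was at its highest in Ctrl 1 as well. Their part in this result was not tested. Without cKO 3 the log2 fold change was -0.66 and the unadjusted p was 0.0536, so that 0 of the 10 genes passed, against 2.51% of all genes. In turn, without Ctrl 1, the library with the highest *Chek2* level and the lowest germ-cell list, it was -0.46 with an unadjusted p of 0.0385, where 2.23% of all genes passed with a lower level. With the mean of the germ-cell list as a covariate it was -0.52 with an unadjusted p of 0.0264. Over all alternatives the adjusted p of *Chek2* in limma lay between 0.335 and 1. Of the 10 genes, 2 had groups that did not overlap, *Chek2* and *Trp53bp1*, where 8.68% of all genes tested did so in either direction, with 4.1% lower and 4.59% higher in cKO.

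*Chek2* starts 202 bases from *Hscb*, a mitochondrial iron-sulfur co-chaperone gene on the other strand, and the bases between both starts are shown because *Chek2* was the gene past the limit. *Topbp1* starts 133 bases from *1300017J02Rik*, and its stretch is shown because it too lies whole between divergent starts and holds E2F letters. Both were read from RefSeq promoter windows of GRCm38.p6, at chr5:110839778-110839978 and chr9:103305083-103305214, and are written 5′ to 3′ on the plus strand. Capitals mark matches on either strand to letters of E2F sites (TTTCGCGC, TTTGGCGC or TTTCCCGC) or of the CCAAT box, which do not overlap each other here.
Chek2: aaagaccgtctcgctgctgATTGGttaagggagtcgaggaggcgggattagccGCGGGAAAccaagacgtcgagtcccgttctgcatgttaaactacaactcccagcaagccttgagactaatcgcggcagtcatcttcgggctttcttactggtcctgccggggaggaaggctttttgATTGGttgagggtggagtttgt
Topbp1: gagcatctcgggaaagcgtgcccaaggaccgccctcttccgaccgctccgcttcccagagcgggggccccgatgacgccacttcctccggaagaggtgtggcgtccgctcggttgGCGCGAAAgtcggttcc
In the *Chek2* stretch the capitals are 1 E2F match (at bases -152 to -145 from the RefSeq start) between CCAAT matches at -186 to -182 and -26 to -22, all on the minus strand. In the *Topbp1* stretch they are 1 E2F match on the minus strand, at -129 to -122 from a RefSeq start that lies inside the gene. Promoter windows of 250 bases before and 50 after the start were matched for 9 of the 10 genes, all except *H2afx*. E2F letters stood in the windows of 4 of them (*Bard1*, *Chek2*, *Mdc1* and *Topbp1*), against 1.84% of all 32851 windows. The CCAAT box stood in 4 (*Atm*, *Brca1*, *Chek2* and *Mdc1*), against 37.4%. Letters of the cell-cycle element CHR (TTTGAA or TTCGAA) stood in 2 (*Atr* and *Bard1*), against 19.2%, and those of the STRA8 motif (CNCCTCAG) in 1 (*Trp53bp1*), against 7.94%. The windows behind these shares were not limited to the genes tested here. A match is a description of these letters and not of binding.

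Several of the genes share a start region with another gene. Of the 10, 4 start within 1000 bases of a protein-coding gene on the other strand, against 10.2% of the 13482 protein-coding genes tested. *Npat*, a regulator of histone genes that starts 307 bases from *Atm*, measured 11.7, 11.6 and 14.4 FPKM in the Ctrl libraries, against 23.3, 11.8 and 26.2 in the cKO libraries. As for *Atm*, cKO 2 lay inside the Ctrl range and the other cKO libraries above it (log2 fold change 0.59, 95% interval -0.09 to 1.28, limma, unadjusted p = 0.0792, adjusted p = 0.978). *Hscb* lay between 15.4 and 20.4 FPKM, with a log2 fold change of -0.19 (interval -0.49 to 0.11). *Nbr1*, an autophagy receptor gene 194 bases from *Brca1*, was higher in every cKO library (28.3 to 28.6 FPKM) than in every Ctrl library (24.6 to 27.4), with a log2 fold change of 0.12 (interval -0.12 to 0.37), and *1300017J02Rik* one of -0.60 (interval -1.54 to 0.34), neither past the limit.

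The mRNAs of the histone that carries the damage mark and of its reader did not pass the limit. These mRNA levels do not measure the mark itself, phosphorylated H2AX. The study stained that mark at a later age and reported more positive oocytes in cKO than in Ctrl ovaries. *H2afx* (ENSMUSG00000049932, chromosome 9, 44334694 to 44336077, plus strand) encodes H2AX, and its mRNA exists with and without a poly(A) tail, of which poly-T beads take the tailed form. It measured 171, 103 and 101 FPKM in the Ctrl libraries, against 106, 116 and 125 in the cKO libraries. Ctrl 1 was the highest library and the others lay close together. The log2 fold change was -0.07 (95% interval -0.60 to 0.46, limma, adjusted p = 0.99) and 0.18 without Ctrl 1. The cycling-cell list was also highest in Ctrl 1, and its part in this value was not tested. *Mdc1* (ENSMUSG00000061607, chromosome 17, 35841515 to 35859670, plus strand) measured 20.7, 28.7 and 30.1 FPKM in the Ctrl libraries, against 50.3, 23.2 and 38.2 in the cKO libraries. Its cKO 1 and cKO 3 libraries lay above the Ctrl libraries and cKO 2 lay among them. The log2 fold change was 0.43 with an interval of -0.26 to 1.12 (limma, unadjusted p = 0.186, adjusted p = 0.978).

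*Topbp1* (ENSMUSG00000032555, chromosome 9, 103305215 to 103350428, plus strand), the activator of ATR, measured 16.5, 21.7 and 24.3 FPKM in the Ctrl libraries, against 32.3, 15.2 and 27.1 in the cKO libraries. Its cKO 2 value was the lowest of the 6, and the log2 fold change was 0.20 (95% interval -0.48 to 0.88, limma, adjusted p = 0.986).

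Neither subunit of the BRCA1 ligase passed the limit. *Brca1* (ENSMUSG00000017146, chromosome 11, 101488764 to 101551955, minus strand) measured 8.44, 8.38 and 8.18 FPKM in the Ctrl libraries, against 11.2, 5.80 and 10.01 in the cKO libraries. Its Ctrl values were the closest of the 10 genes on the log2 scale. The cKO libraries lay on both sides of the Ctrl libraries, and the log2 fold change was 0.06 (95% interval -0.48 to 0.59, limma, adjusted p = 0.992). *Bard1* (ENSMUSG00000026196, chromosome 1, 71027498 to 71103146, minus strand), the partner without which BRCA1 is unstable, measured 4.94, 4.50 and 3.56 FPKM in the Ctrl libraries, against 3.90, 3.14 and 4.72 in the cKO libraries, with a log2 fold change of -0.12 (interval -0.53 to 0.29, limma, adjusted p = 0.986). The groups overlapped for both genes.

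*Trp53bp1* (ENSMUSG00000043909, chromosome 2, 121193281 to 121271407, minus strand), which encodes 53BP1, was the steadiest of the 10 genes. It measured 8.97, 8.93 and 9.49 FPKM in the Ctrl libraries, against 10.7, 10.2 and 10 in the cKO libraries. Every cKO library was above every Ctrl library, by a ratio of the means of 1.13, and the highest library held 1.2 times the level of the lowest. The log2 fold change was 0.16 with a standard error of 0.10 and an interval of -0.09 to 0.41, which did not pass the limit (limma, unadjusted p = 0.173, adjusted p = 0.978, exact permutation p = 0.1). It overlaps *Tubgcp4* on the other strand, and whether strand was used in counting is not known here. With any single library left out, the log2 fold change stayed between 0.13 and 0.18.

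**Figure D2:**
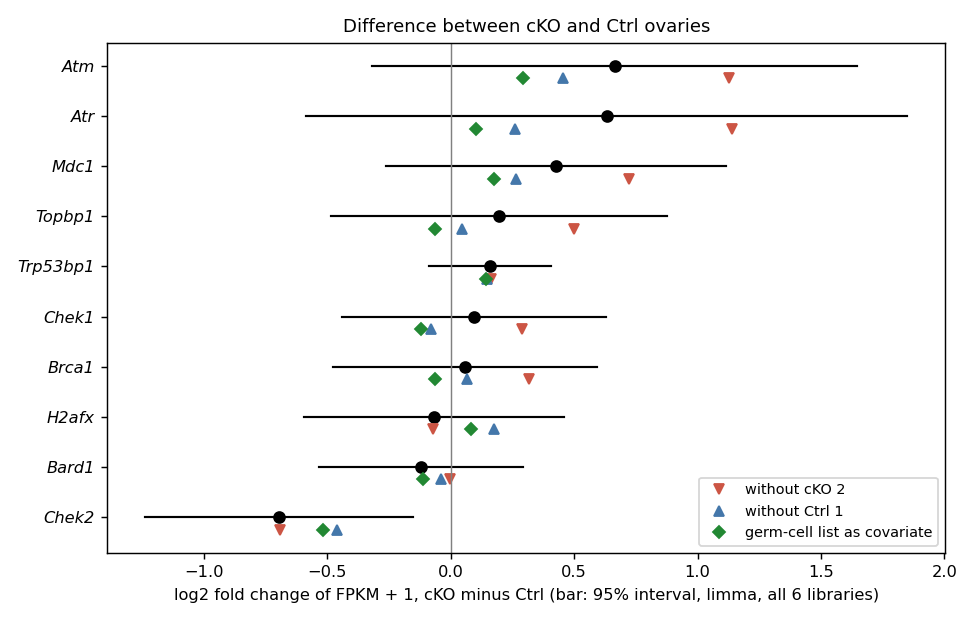
Log2 fold change of FPKM + 1 between cKO and Ctrl for each gene (black points, with 95% intervals from limma) and the values without cKO 2, without Ctrl 1 and with the germ-cell list as a covariate (coloured marks). Only the interval of *Chek2*, -1.24 to -0.15, leaves out 0, and *Atm*, *Atr*, *Mdc1* and *Topbp1* move furthest without cKO 2.

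The libraries of a group differed from each other in the same way for several of the 10 genes. For *Atm*, *Atr*, *Chek1*, *Mdc1* and *Topbp1*, Ctrl 1 was the lowest of the Ctrl libraries and cKO 2 the lowest of the cKO libraries. This order held for 5 of the 10 genes and for 19.3% of all genes tested, and it was also the order of the germ-cell list, whose mean log2 level, relative to its mean over all libraries, ran at -1.15, -0.19 and 0.55 for Ctrl and at 0.57, -0.48 and 0.70 for cKO. *Chek2* ran the other way in Ctrl, with its highest level in Ctrl 1 and its lowest in Ctrl 3.

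**Figure D3:**
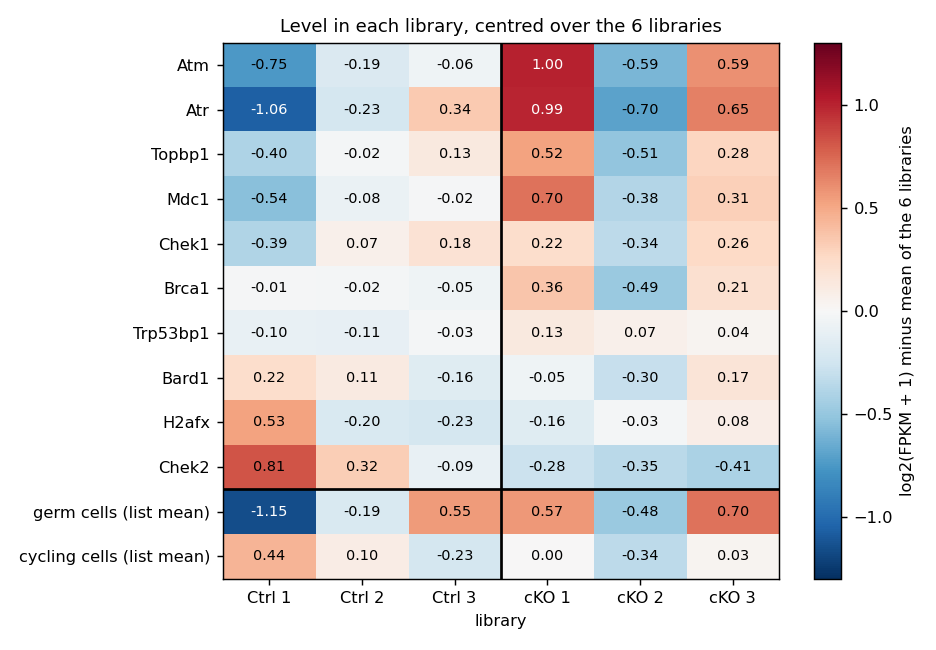
Log2(FPKM + 1) of each gene in each library minus its mean over the 6 libraries (blue below, red above), with the means of the germ-cell and cycling-cell lists in the last rows. *Atr* runs from -1.06 in Ctrl 1 to 0.99 in cKO 1, and *Trp53bp1* stays within -0.11 and 0.13.

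Leaving out cKO 2, the cKO library with the lowest germ-cell list, changed the picture most. Without it, 5 genes passed the unadjusted limit with a higher level in cKO, namely *Atm* (log2 fold change 1.13, 95% interval 0.50 to 1.75), *Atr* (1.14, 0.12 to 2.15), *Mdc1* (0.72, 0.20 to 1.24), *Topbp1* (0.50, 0.035 to 0.97) and *Brca1* (0.32, 0.051 to 0.58). *Chek2* passed with a lower level (-0.69). In that fit 14.5% of all genes passed the limit, 8.46% with a higher and 6.01% with a lower level, and the adjusted p of these 6 genes lay between 0.214 and 0.335 in limma. With the mean of the germ-cell list as a covariate and all 6 libraries, the log2 fold changes were smaller, at 0.29 for *Atm* (unadjusted p = 0.329 in limma), 0.10 for *Atr* (unadjusted p = 0.644) and 0.18 for *Mdc1* (unadjusted p = 0.419). The germ-cell list itself had a median log2 fold change of 0.47, with 7 of its 9 genes above 0 and 1 past the unadjusted limit, *Dazl*, an RNA-binding protein of germ cells (1.60). *Ddx4*, which encodes the germ-cell helicase VASA, had a log2 fold change of 0.49 (interval -0.81 to 1.79). Because the covariate was itself higher on average in cKO, that fit cannot tell germ-cell content from genotype. The part of either in these values was not tested.

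Levels can be set side by side because FPKM is per length. Over the 6 libraries, *H2afx* had by far the highest mean level, 120.0 FPKM ± 26.3 (SD), followed by *Mdc1* with 31.9 ± 10.9 and *Topbp1* with 22.9 ± 6.46, and each was above the next in 6 of 6 libraries. *Atr* (12.2), *Chek1* (9.86), *Trp53bp1* (9.72), *Brca1* (8.68), *Atm* (7.91) and *Chek2* (7.09) followed, and each of these was above the next of the 6 in only 3 or 4 of the 6 libraries, so that neighbours in this order did not differ beyond their spread. *Bard1* was lowest, with 4.12 ± 0.706, below *Chek2* in 6 of 6 libraries. This order rests on the gene length used for FPKM, which equals the bases covered by any exon in GENCODE M21 for all 10 genes. For *Atr* that length is 23629 bases, of which 65.3% lies only in transcripts annotated as retained introns, while its principal transcript in the annotation (APPRIS) has 8102 bases. For *Topbp1* the share is 52.2%, and for the other 8 genes it lies between 0.0% and 22.7%. Per base of the principal transcript, the mean level of *Atr* was 35.6 and that of *Topbp1* 49.1, which puts *Topbp1* above *Mdc1* (32.2) and makes *Atr* overlap with it. These values still count reads on the retained introns, so the level of the spliced mRNA alone is not given by them.

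**Figure D4:**
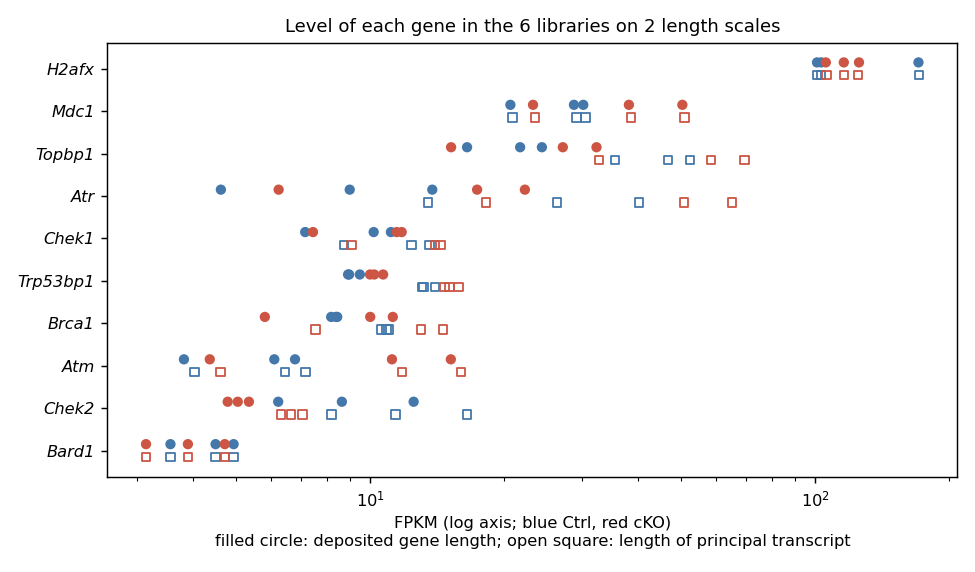
FPKM of each gene in the 3 Ctrl (blue) and 3 cKO (red) libraries on a log axis, per deposited gene length (filled circles) and per length of the principal transcript (open squares). *Atr* and *Topbp1* shift furthest between the length scales, by 2.92 and 2.15 times, and *H2afx*, *Mdc1* and *Bard1* stay in place.

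A further 48 genes of the DNA damage response were listed by role. Of these, 47 were in the table (*Shld3* was not matched), 46 were tested, and *Trp63* did not reach the minimum level, with 6 to 15 reads per library. *Trp63* encodes TAp63, which CHK2 is known to activate in oocytes. Of the 46 genes, 1 passed the unadjusted limit, and it was lower in cKO ovaries, against 4.43% of all genes tested. The median log2 fold change was 0.018, with 25 genes above 0 and 21 below.

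The gene that passed was *Cdc25c*, a phosphatase that drives entry into mitosis and is inhibited by the checkpoint kinases. It measured 8.59, 5.44 and 5.60 FPKM in the Ctrl libraries, against 3.87, 4.58 and 4.32 in the cKO libraries, with all cKO libraries below all Ctrl libraries. It fell by 0.50 on the log2 scale (95% interval -0.94 to -0.06, limma, unadjusted p = 0.0302, adjusted p = 0.978). It did not pass without Ctrl 1 (log2 fold change -0.31, unadjusted p = 0.072), without cKO 1 (-0.45, unadjusted p = 0.0882) or without cKO 3 (-0.51, unadjusted p = 0.0624), nor with the germ-cell list as a covariate (-0.37, unadjusted p = 0.0507) or the replicate number as a block (unadjusted p = 0.0598). The cycling-cell list, to which *Cdc25c* is close in function, had a median log2 fold change of -0.29 with 8 of its 12 genes below 0 and none past the limit in limma, and its part in this value was not tested. In the same group of phosphatases and effectors, *Cdc25b* ranged from 11.02 to 86.0 FPKM with a log2 fold change of -0.74 (interval -2.29 to 0.81), and *Cdc25a* had one of 0.11. *Ppm1d*, a phosphatase that switches the checkpoint off, had lower values in all cKO libraries (7.68 to 9.39) than in all Ctrl libraries (9.78 to 15.5) but did not pass (log2 fold change -0.42, unadjusted p = 0.0629 in limma). Of the 46 genes tested, groups did not overlap for 2 that were lower in cKO and 1 that was higher. Over all genes tested these shares were 4.1% and 4.59%. The higher gene was *Kat5*, at 22.0 to 24.2 FPKM in cKO and 19.4 to 21.8 in Ctrl.

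The other role groups held no gene past the limit in limma. The proteins that first bind breaks, MRE11, RAD50 and NBN, had log2 fold changes between -0.07 (*Nbn*) and 0.25 (*Mre11a*). Among 12 ATR partners and subunits of the checkpoint clamp, they lay between -0.29 for *Rad9a*, a clamp subunit, and 0.35 for *Rad17*, the clamp loader, with a median of 0.021. The 7 genes of the ubiquitin branch lay between -0.25 (*Uimc1*, which encodes the ubiquitin reader RAP80) and 0.12 (*Brcc3*, a deubiquitinase). The 6 effectors or regulators of 53BP1 lay between -0.12 (*Paxip1*) and 0.13 (*Shld1*). The medians of these 4 groups lay between -0.05 and 0.02. Medians were higher for the 4 partners of BRCA1 (0.31) and for the 7 co-factors and related kinases (0.14). Among 4 partners of BRCA1, *Brca2*, which loads the recombinases, was the highest at 0.69 (interval -0.33 to 1.72) and *Palb2* the lowest at -0.12. *Brca2* measured 6.03, 9.07 and 12.3 FPKM in the Ctrl libraries, against 23.8, 7.30 and 18.3 in the cKO libraries, the same order of libraries as *Atr* and *Atm*. Of the 7 co-factors and related kinases, *Smg1*, a kinase of nonsense-mediated decay related to ATM, was highest at 0.56 (interval -0.13 to 1.25) and *Atmin*, an ATM co-factor, lowest at -0.07. Without cKO 2, 8 of the 46 genes passed with a higher and 3 with a lower level, where 8.46% and 6.01% of all genes did. The 8 were *Mre11a*, *Etaa1*, *Rad17*, *Tipin*, *Brip1*, *Rbbp8*, *Brca2* and *Smg1*, and the 3 were *Nudt16l1*, *Cdc25c* and *Cdkn1a*.

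**Figure D5:**
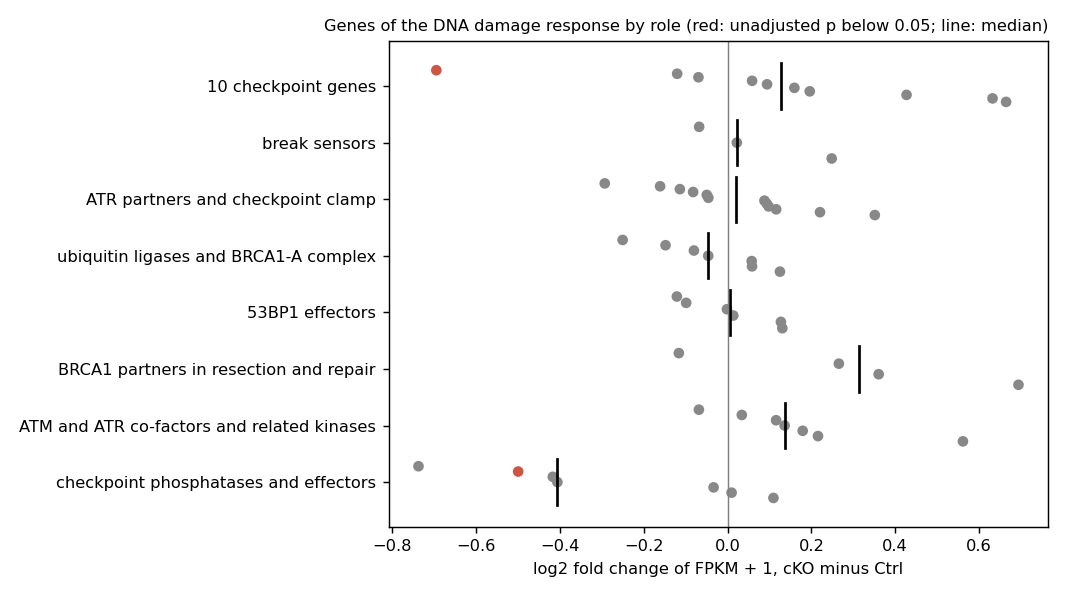
Log2 fold change of FPKM + 1 (cKO minus Ctrl) of the 10 genes and of 46 further genes of the DNA damage response, 1 point a gene, grouped by role, with the median of each group as a line and genes at an unadjusted p below 0.05 in red. Only *Chek2* (-0.70) and *Cdc25c* (-0.50) are red, and the group of phosphatases and effectors has the lowest median, -0.41.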

How the data were processed

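RNA of ovaries at 16.5 dpc was measured in 6 libraries, whose titles give the group and the replicate number. The authors selected mRNA with poly-T beads, aligned paired-end reads to GRCm38 (mm10 in the submitters' processing notes) with HISAT2 2.0.5, used featureCounts to count reads and deposited the result as FPKM. The sources used here give neither the annotation release nor the strand setting. Gene lengths of the deposited table equal exon unions of GENCODE M21 for 98.01% of the shared genes. Whole reads were recovered from FPKM and gene length.

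limma 3.58.1 (R 4.3.3) was run on log2(FPKM + 1), with an intensity trend and group as the only term, over every gene that averaged 0.5 FPKM or more. p-values were adjusted by the Benjamini-Hochberg method over all genes tested. An exact permutation test of single genes was added. The fit was run on simulated libraries drawn independently around a shared mean. These lack the shifts that many genes share between the real libraries, so the run does not show how the fit performs on these data. Python 3.11.15 with pandas 2.3.3 and matplotlib 3.10.9 was used for tables and figures. The 10 genes, the pathway list, the marker lists and the tests were chosen with earlier results of these data known. Named genes beside the 10 are *Srsf1*, pathway genes past the limit and the largest and smallest log2 fold change of each role group. Divergent genes, genes that overlap *Atr* or *Trp53bp1* on the other strand and defining markers are named as well. Overlapping genes with at most 5 reads in any library are not named. *Ppm1d*, *Kat5*, *Shld3*, *Trp63* and the genes named only without cKO 2 were chosen after their values were seen. The counts of genes past the limit and the log2 fold changes of the 10 genes and the pathway list were recomputed with pseudocounts of 0.1 and 0.5, with the minimum dropped or raised to 1 FPKM, with quantile normalization, with median-ratio scaling, with voom on the recovered reads (TMM factors), without the trend, with a replicate block, with the germ-cell list as covariate and with each library left out in turn.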

Additional observations from a re-analysis of the deposited data

How the results depend on the processing

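Under the 10 alternatives that keep all 6 libraries, 1 of the 10 genes passed the unadjusted limit, and it was *Chek2* each time. With 1 library left out, the count was between 0 (without cKO 3) and 6 (without cKO 2). Of the 160 log2 fold changes of single genes under an alternative, 144 kept their direction and their side of the limit, 5 passed it newly, all without cKO 2, 1 no longer passed (*Chek2* without cKO 3) and 10 changed sign. With the germ-cell list as covariate the log2 fold change was -0.12 for *Chek1*, 0.081 for *H2afx*, -0.063 for *Topbp1* and -0.063 for *Brca1*. With 1 library left out, the log2 fold change of *Chek1* lay between -0.078 and 0.29, of *H2afx* between -0.20 and 0.18, of *Topbp1* between -0.018 and 0.50 and of *Brca1* between -0.11 and 0.32. Without Ctrl 1 it was -0.078 for *Chek1* and 0.18 for *H2afx*, without cKO 1 it was -0.018 for *Topbp1* and -0.11 for *Brca1*, and without cKO 3 it was -0.011 for *Chek1* and -0.032 for *Brca1*. None of these 10 passed the limit in limma, and the cause was not tested.

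Of the pathway list, 1 gene passed with all libraries, 0 with the replicate block and between 0 (without cKO 1 or cKO 3) and 11 (without cKO 2) with 1 library left out. With the germ-cell list as covariate 1 gene passed, *Uimc1* in place of *Cdc25c* (log2 fold change -0.40, unadjusted p = 0.00916, adjusted p = 0.69 in limma). Over all genes, 761 passed, 1331 with no minimum FPKM, where 33797 genes were tested, and between 365 (without Ctrl 2) and 2500 (without cKO 2) with 1 library left out. Without Ctrl 1, 4 genes passed an adjusted p below 0.05 in limma, none of them among the 10 genes or the pathway list. Deviations of libraries with the same replicate number correlated across genes at -0.39, -0.03 and 0.12 for numbers 1, 2 and 3. These values give no sign that the numbers pair the libraries. They cannot exclude a pairing, because libraries also differ in their mix of cells. The replicate block changed no call among the 10 genes (*Chek2*, unadjusted p = 0.0165 in limma). The spread between libraries sets the precision, and the standard error of the log2 fold change was 0.51 for *Atr* and 0.10 for *Trp53bp1*.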

Other observations

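The levels of genes that work together were also set against each other inside each library. The FPKM of *Atr* divided by that of *Atm* came to 1.21, 1.48 and 2.03 for the Ctrl libraries, against 1.47, 1.43 and 1.55 for the cKO libraries, so the cKO ratios lay within the range of Ctrl while the highest library held 4.82 times the *Atr* and 3.98 times the *Atm* level of the lowest. The ratio of *Chek1* to *Chek2*, the kinases that act after ATR and ATM, came to 0.571, 1.18 and 1.79 for the Ctrl libraries, against 2.15, 1.48 and 2.46 for the cKO libraries. Its cKO values lay mostly above Ctrl and the groups overlapped at cKO 2 and Ctrl 3 (difference in log2 ratio 0.90, exact permutation test, two-sided, p = 0.2). The ratio of *Brca1* to *Bard1* lay between 1.71 and 2.30 in Ctrl and between 1.85 and 2.89 in cKO (exact permutation p = 0.6). These pairs are 3 of 5 ratios computed, and none had groups without overlap. The ratios of *Mdc1* to *H2afx* (exact permutation p = 0.4) and of *Atr* to *Topbp1* (exact permutation p = 0.3) overlapped as well. Adjusted over the 5 ratios by the Benjamini-Hochberg method, the exact permutation p-values lay between 0.667 and 0.8, and 3 libraries against 3 cannot give less than 0.1 before adjustment.

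Of the 10 genes, 5 (*Atm*, *Atr*, *Chek1*, *H2afx* and *Topbp1*) lie on chromosome 9.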
